A study of Homo sapiens with 8 samples.

Results

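The genes described here are 10 regulators of the circadian clock, chosen by name from the deposited expression table: BHLHE40, BHLHE41, PER1, PER2, PER3, CRY1, CRY2, CLOCK, NR1D2 and RORA. All 10 were among the 15176 genes listed, and all 10 passed the filter on low values (mean log2 CPM above 0, where CPM is a gene's read count scaled to the size of its library), which kept 13112 genes. They were measured by RNA sequencing in Panc1, an established human pancreatic ductal adenocarcinoma line, so every library shares 1 genetic background. The control siRNA (siCtrl) was given to cells at 21% oxygen (siCtrl_Nx, n = 2 libraries) and at 1% oxygen (siCtrl_Hx, n = 3), and the siRNA against the splicing factor SF3B1 to cells at 1% oxygen (siSF3B1_Hx, n = 3). The labels give 8 hours at 1% oxygen for the siSF3B1 cells, and their wording leaves unclear whether the same time holds for the siCtrl cells. The labels give no series of times within a group, so levels are given here and rhythm was not measured. No siSF3B1 group at 21% oxygen was analysed, and separate cultures for the libraries are not stated in the labels, so the p-values cover only spread from library to library, possibly technical. Replicates carry the library numbers of the labels, which are 1 and 4 for siCtrl_Nx, 2, 5 and 8 for siCtrl_Hx, and 3, 6 and 9 for siSF3B1_Hx.

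The mammalian clock is a transcriptional feedback loop. CLOCK pairs with BMAL1 (ARNTL in the table) and switches on genes that carry the E-box CACGTG. Among those genes are the PER and CRY repressors, which return to the nucleus and block CLOCK and BMAL1, and the basic helix-loop-helix repressors BHLHE40 and BHLHE41 (also named DEC1 and DEC2), which bind E-boxes themselves. In a second loop the nuclear receptors NR1D1 and NR1D2 (REV-ERB alpha and beta) repress BMAL1 and the ROR receptors, RORA among them, activate it through the same elements. BHLHE40 and BHLHE41 are also known as genes that the hypoxia-inducible factor HIF-1 switches on.

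The sequences shown next are the E-boxes found near the starts of the members, because the E-box is the element through which most of these genes regulate each other. The window searched was the 250 bases before each RefSeq start (GRCh38.p14), which gave 14 windows for the 10 genes, and both strands were read. CACGTG was in 4 of the 14 windows (28.6%), of 4 members, and in 6.34% of all 35116 windows of that length. Each stretch has 30 bases, is written 5′ to 3′ on the gene's strand, and has the E-box in capitals.
BHLHE40: tccaaCACGTGagactcatgtgatgaagcc
BHLHE41: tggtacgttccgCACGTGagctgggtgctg
PER1: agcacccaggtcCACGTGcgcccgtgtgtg
NR1D2, upstream E-box: ggcgggcggggaCACGTGaggccgctcggc
NR1D2, downstream E-box: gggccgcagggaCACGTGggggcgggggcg

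The BHLHE40 stretch is chr3:4979187-4979216 on the plus strand, and its E-box begins 245 bases before the start. In BHLHE41 the stretch is chr12:26125068-26125097 on the minus strand, with the E-box beginning 48 bases before the start. The PER1 stretch is chr17:8152560-8152589 on the minus strand, with the E-box beginning 173 bases before the start. NR1D2 carries 2 E-boxes in its downstream window, in chr3:23945954-23945983 and chr3:23946004-23946033 on the plus strand. RefSeq and GENCODE 29 starts differ. The whole BHLHE40 and CRY1 windows and 90 bases of the BHLHE41 window lie in exons of the GENCODE models. Bases shared with such exons were 229 for the upstream CLOCK window, 126 for the downstream CRY2 window and 57 for the downstream PER3 window. The PER1 window shared 31, and the upstream NR1D2 window 26. The PER1 and RORA windows are among those that lie inside their GENCODE genes. The only RORA window is chr15:60627531-60627780, while the GENCODE gene begins at 61229319 on the minus strand. This RORA window held none of the motifs searched, and the bases before the GENCODE start of RORA were not read. The upstream NR1D2 window held none of the motifs searched. The downstream NR1D2 window lies inside the GENCODE gene, which starts at 23945260, but shares no base with an exon of that gene. This downstream window is shown whole because NR1D2 had the highest log2 fold change of the 10 genes with SF3B1 siRNA. It spans chr3:23945871-23946120, and its capitals mark the E-boxes, a GCGTG core and a D-box (TTACATAA, which is TTATGTAA on the other strand).
NR1D2 window: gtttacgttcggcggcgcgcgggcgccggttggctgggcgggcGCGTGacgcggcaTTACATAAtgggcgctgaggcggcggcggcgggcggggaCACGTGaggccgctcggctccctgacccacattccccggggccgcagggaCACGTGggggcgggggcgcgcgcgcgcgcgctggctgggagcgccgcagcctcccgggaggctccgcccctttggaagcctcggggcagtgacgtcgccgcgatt

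Other short motifs were counted in the same 14 windows. The E-box variant CACGTT was in 4 windows (28.6%), 1 each of PER2, CRY1, CRY2 and CLOCK, and in 4.55% of all windows. With both strands read, every CACGTG and every CACGTT holds the core ACGTG of the HIF-1 element. That core was in 8 windows (57.1%, against 18.5% of all), and the members that hold it are those with CACGTG or CACGTT. The variant core GCGTG was in 6 windows (42.9%, against 32.2%), of 5 members. The PER3 windows overlap, and a GCGTG site in the shared bases counts for both. D-boxes, written TTATGTAA or TTATGCAA, were in 3 windows (21.4%, against 1.61%), of PER1, PER3 and NR1D2. AGGTCA, the core bound by REV-ERB and ROR receptors, was in 3 windows (21.4%, against 12.1%), of PER1 and CRY2. The cyclic AMP element TGACGTCA was in none of the 14 windows and in 1.65% of all. These are matches of letters and say nothing of binding in Panc1 cells.

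As a check of the labels, SF3B1 stood at 8.88 and 8.87 log2 CPM in siCtrl_Nx, 8.86, 8.74 and 8.70 in siCtrl_Hx, and 5.44, 5.18 and 5.41 in siSF3B1_Hx. All 7 ductal epithelial markers examined were listed, from 1.69 to 12.6 log2 CPM, while none of 4 acinar and none of 3 endothelial markers was, and 3 of 14 markers of other cell types were. Those were the leukocyte marker CD68, at 6.71 to 7.84 log2 CPM and above the ductal markers KRT7, EPCAM and MUC1, and the fibroblast markers COL1A1, at 3.62 to 5.73, and PDGFRB, at -0.84 to 0.91. Their part in the results was not tested. Recovered depth ran from 20496492 to 25257173 reads per library, and 3 reads corresponded to 0.114 to 0.158 CPM. In bulk RNA, fewer cells with a transcript and less transcript per cell cannot be told apart.

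Hypoxia in siCtrl cells raised 3 of the 10 genes (BHLHE40, BHLHE41 and RORA) and lowered 1 (PER3), while 6 did not pass the test. The test was limma on log2 CPM with Benjamini-Hochberg adjustment over all genes tested, and a gene was called at an adjusted p under 0.05. By this rule 5.65% of all tested genes were called, 4.35% higher and 1.30% lower. The members were chosen with earlier results of these data known, so the share of all genes is no test of them as a set. The libraries of both groups did not overlap for 6 of the 10 members, against 42.7% of all genes. The median log2 fold change was 0.11 over the members and -0.017 over all genes. This background rests on few libraries, since the 741 genes called became 278 when siCtrl_Nx replicate 1 was left out and 306 when replicate 4 was. Leaving out siCtrl_Hx replicate 2 gave 418, and leaving out replicate 8 gave 411. With sets of library numbers as a block, 1645 genes (12.5%) were called, and 5 members were called, 3 higher and 2 lower.

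SF3B1 siRNA at 1% oxygen raised 4 of the 10 genes (NR1D2, PER1, CRY2 and BHLHE41) and lowered 4 (PER3, RORA, CLOCK and CRY1), and 2 did not pass. Of all tested genes 66.0% were called in this comparison, 35.0% higher and 30.9% lower, so 8 of 10 members stands near a high background. The libraries of both groups did not overlap for 8 of the 10, against 68.4% of all genes. The median log2 fold change was 0.01 over the members and 0.033 over all genes. Both comparisons use the same siCtrl_Hx libraries, so a chance deviation of that group enters them with opposite sign. Scaling by plain read totals moved the median of all genes in the siRNA comparison to -0.098, and 27.1% of all genes were then called higher and 37.8% lower, with 3 members higher and 5 lower. With the library sets as a block all 10 members were called, 5 higher and 5 lower, against 73.7% of all genes.

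**Figure D1:**
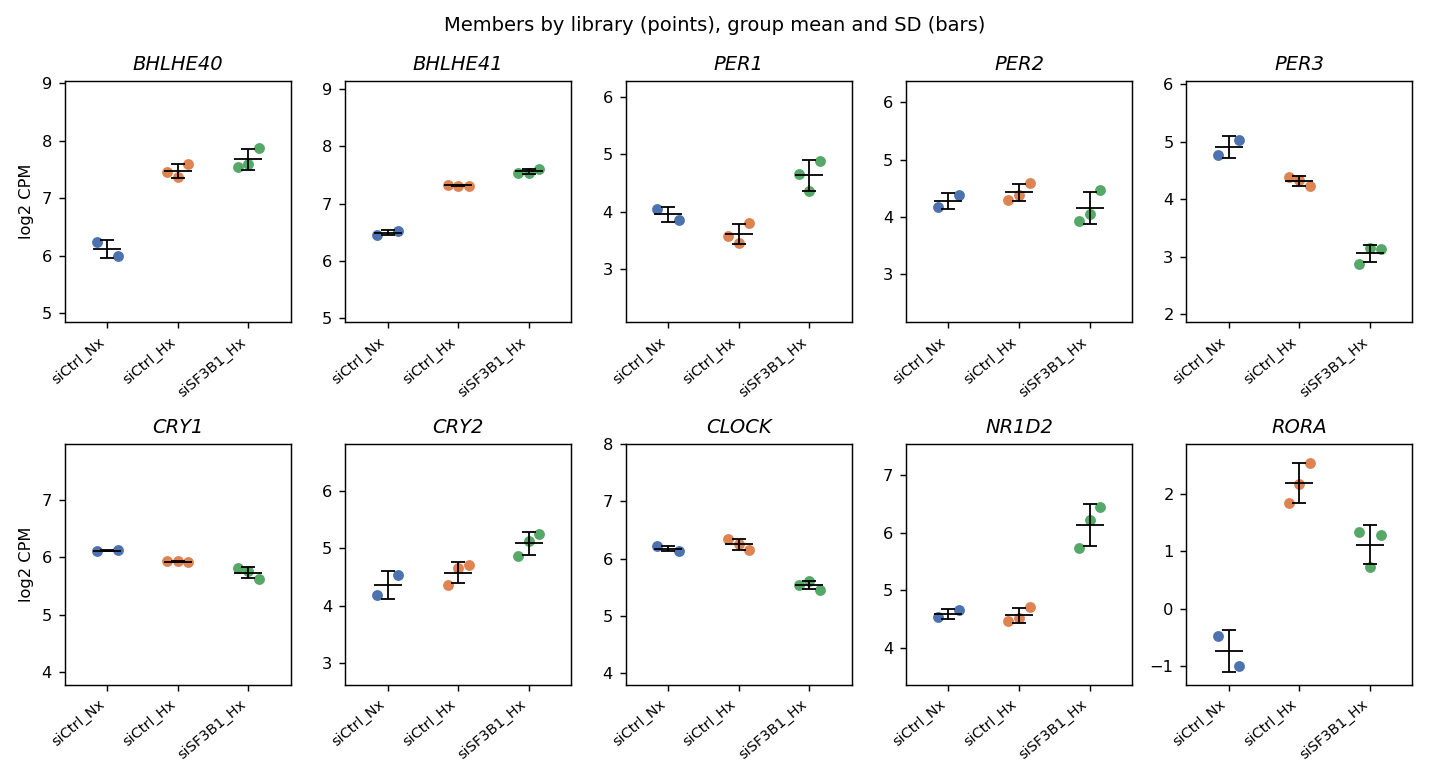
Level of each of the 10 genes in each library, in log2 CPM, with 1 panel per gene, a point per library and bars for the group mean and SD; every panel spans the same range of log2 units. BHLHE40 and BHLHE41 are higher in every 1% oxygen library than at 21%, RORA goes from at most -0.47 in siCtrl_Nx to at least 1.85 in siCtrl_Hx, and PER3 is lowest and NR1D2 highest in siSF3B1_Hx.

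BHLHE40 (Entrez gene 8553, chromosome 3, 4979116 to 4985323, plus strand of GRCh38) is an E-box-binding repressor. Its level was 6.23 and 6.0 log2 CPM in siCtrl_Nx, 7.45, 7.36 and 7.6 in siCtrl_Hx, and 7.54, 7.60 and 7.88 in siSF3B1_Hx. Every library at 1% oxygen lay above both at 21%, whereas the hypoxic groups overlapped. In hypoxia the gene rose 2.56-fold (log2 fold change 1.35 ± 0.116 SE, adjusted p = 7.55e-05 by limma). SF3B1 siRNA gave a log2 fold change of 0.20 (95% CI -0.03 to 0.43), which did not pass (limma adjusted p = 0.107) and did pass with the library sets as a block (0.20, adjusted p = 0.00802). The siRNA change was smaller with other scaling. It was 0.08 after quantile normalization (limma adjusted p = 0.534) and 0.07 with plain read totals (limma adjusted p = 0.554).

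BHLHE41 (Entrez gene 79365, chromosome 12, 26120026 to 26125127, minus strand), the paralogue with the same role, stood at 6.46 and 6.52 log2 CPM in siCtrl_Nx. Values in siCtrl_Hx were 7.33, 7.31 and 7.31, and in siSF3B1_Hx 7.54, 7.53 and 7.61 log2 CPM. The 3 groups did not overlap and formed steps from siCtrl_Nx to siCtrl_Hx to siSF3B1_Hx. Hypoxia raised it 1.78-fold (log2 fold change 0.83 ± 0.0599 SE, limma adjusted p = 2.35e-05). With SF3B1 siRNA it rose further by a log2 fold change of 0.24 ± 0.0536 SE (limma adjusted p = 0.00278). Scaled by plain read totals the siRNA change was 0.11 with an adjusted p of 0.0906, and relative to the median of all genes it was 0.21 with the authors' scaling and with plain totals and 0.10 after quantile normalization. Of its exon bases 4.1% are shared with SSPN on the opposite strand. How reads of such shared bases were counted, or whether they were left out, is not known. The sources used here do not give the strand setting of the counting.

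PER1 (Entrez gene 5187, chromosome 17, 8140472 to 8156506, minus strand) encodes a repressor of CLOCK and BMAL1 that also responds quickly to outside signals such as cyclic AMP and glucocorticoids. It was at 4.05 and 3.86 log2 CPM in siCtrl_Nx, at 3.58, 3.46 and 3.80 in siCtrl_Hx, and at 4.65, 4.36 and 4.89 in siSF3B1_Hx. The siSF3B1_Hx libraries were the highest 3 of the 8 and the siCtrl_Hx libraries the lowest 3. With SF3B1 siRNA PER1 rose 2.03-fold (log2 fold change 1.02 ± 0.143 SE, limma adjusted p = 0.000129). In hypoxia alone the log2 fold change was -0.34 (95% CI -0.70 to 0.01, limma adjusted p = 0.269), and with the block of library sets it was -0.46 and passed (adjusted p = 0.00746).

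PER2 (Entrez gene 8864, chromosome 2, 238244038 to 238290102, minus strand), the partner of CRY proteins in the repressor complex, read 4.18 and 4.38 log2 CPM in siCtrl_Nx. The other values were 4.30, 4.39 and 4.6 in siCtrl_Hx and 3.94, 4.05 and 4.47 in siSF3B1_Hx. All groups overlapped. The log2 fold change was 0.15 in hypoxia (95% CI -0.21 to 0.51, limma adjusted p = 0.657) and -0.27 with SF3B1 siRNA (95% CI -0.59 to 0.04, limma adjusted p = 0.115). The siRNA difference turned on the scaling and on 1 library. It passed at -0.41 with plain read totals (adjusted p = 0.0269), at -0.43 without siSF3B1_Hx replicate 9 (adjusted p = 0.0127) and at -0.27 with the block (adjusted p = 0.00872).

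PER3 (Entrez gene 8863, chromosome 1, 7784320 to 7845177, plus strand), the PER paralogue that the core oscillator needs least in mice, was at 4.78 and 5.04 log2 CPM in siCtrl_Nx. It was at 4.39, 4.34 and 4.23 in siCtrl_Hx and at 2.88, 3.16 and 3.13 in siSF3B1_Hx. The groups did not overlap and each step was downward. With SF3B1 siRNA it fell 2.40-fold (log2 fold change -1.26 ± 0.112 SE, limma adjusted p = 5.71e-06). In hypoxia it fell 1.51-fold (log2 fold change -0.59 ± 0.125 SE, limma adjusted p = 0.0222). That call was lost when any of the 5 siCtrl libraries was left out. The log2 fold change was then -0.72 (adjusted p = 0.059) without siCtrl_Nx replicate 1 and -0.46 (0.254) without replicate 4. Without siCtrl_Hx replicate 2, 5 or 8 it was -0.63, -0.6 and -0.54, with adjusted p of 0.0555, 0.0546 and 0.086. PER3 shares 10.7% of its exon bases with UTS2 on the opposite strand, a gene not among those listed.

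Of the cryptochromes, which carry the repressing activity of the PER and CRY complex, CRY1 (Entrez gene 1407, chromosome 12, 106991364 to 107093829, minus strand) moved least. It was at 6.11 and 6.13 log2 CPM in siCtrl_Nx, 5.93, 5.93 and 5.92 in siCtrl_Hx, and 5.81, 5.77 and 5.63 in siSF3B1_Hx. The groups did not overlap, and both differences were small. In hypoxia the log2 fold change was -0.19 (95% CI -0.35 to -0.02, limma adjusted p = 0.193), which did not pass. With SF3B1 siRNA it fell by 0.19 ± 0.0661 SE on the log2 scale (limma adjusted p = 0.0265). This call was lost without siCtrl_Hx replicate 2, 5 or 8 (adjusted p = 0.0677, 0.0635 and 0.056) and without siSF3B1_Hx replicate 9 (-0.14, adjusted p = 0.0981).

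CRY2 (Entrez gene 1408, chromosome 11, 45847118 to 45883248, plus strand) read 4.19 and 4.53 log2 CPM in siCtrl_Nx, 4.36, 4.65 and 4.71 in siCtrl_Hx, and 4.87, 5.13 and 5.25 in siSF3B1_Hx. The siCtrl groups overlapped, and the siSF3B1_Hx libraries lay above both. With SF3B1 siRNA it rose 1.42-fold (log2 fold change 0.51 ± 0.134 SE, limma adjusted p = 0.00694). The hypoxia log2 fold change of 0.21 (95% CI -0.12 to 0.55) did not pass (limma adjusted p = 0.473). The cryptochromes were thus called in opposite directions with the siRNA, although the difference between them was not itself tested.

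CLOCK (Entrez gene 9575, chromosome 4, 55427903 to 55547138, minus strand), the activating partner of BMAL1, was at 6.21 and 6.14 log2 CPM in siCtrl_Nx and at 6.34, 6.26 and 6.15 in siCtrl_Hx. In siSF3B1_Hx it was at 5.54, 5.61 and 5.46 log2 CPM, below every siCtrl library. SF3B1 siRNA lowered it 1.64-fold (log2 fold change -0.71 ± 0.0735 SE, limma adjusted p = 1.56e-05). Hypoxia alone gave 0.07 (95% CI -0.11 to 0.25, limma adjusted p = 0.678), with overlapping groups.

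NR1D2 (Entrez gene 9975, chromosome 3, 23945260 to 23980618, plus strand) encodes REV-ERB beta, a haem-binding repressor. The levels were 4.53 and 4.65 log2 CPM in siCtrl_Nx, 4.46, 4.52 and 4.70 in siCtrl_Hx, and 5.73, 6.22 and 6.44 in siSF3B1_Hx. The siCtrl groups overlapped, and each siSF3B1_Hx library lay above all 5 siCtrl libraries. With SF3B1 siRNA it rose 2.98-fold (log2 fold change 1.58 ± 0.155 SE, 95% CI 1.23 to 1.92, limma adjusted p = 1.14e-05). In hypoxia the log2 fold change was -0.03 (95% CI -0.42 to 0.35, limma adjusted p = 0.942).

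RORA (Entrez gene 6095, chromosome 15, 60488284 to 61229319, minus strand), the activating receptor of the second loop, was the least abundant member. It had 15 and 11 recovered reads in siCtrl_Nx, 81, 97 and 137 in siCtrl_Hx, and 51, 33 and 45 in siSF3B1_Hx. In log2 CPM these were -0.47 and -0.99, then 1.85, 2.18 and 2.54, then 1.33, 0.72 and 1.29. The groups did not overlap, and siSF3B1_Hx lay between the siCtrl groups. Hypoxia raised it 7.56-fold (log2 fold change 2.92 ± 0.286 SE, 95% CI 2.28 to 3.55, limma adjusted p = 0.000184). With SF3B1 siRNA it fell 2.11-fold from that level (log2 fold change -1.08 ± 0.256 SE, limma adjusted p = 0.00388). RORA shares 3.31% of its exon bases with RORA-AS1 on the opposite strand.

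**Figure D2:**
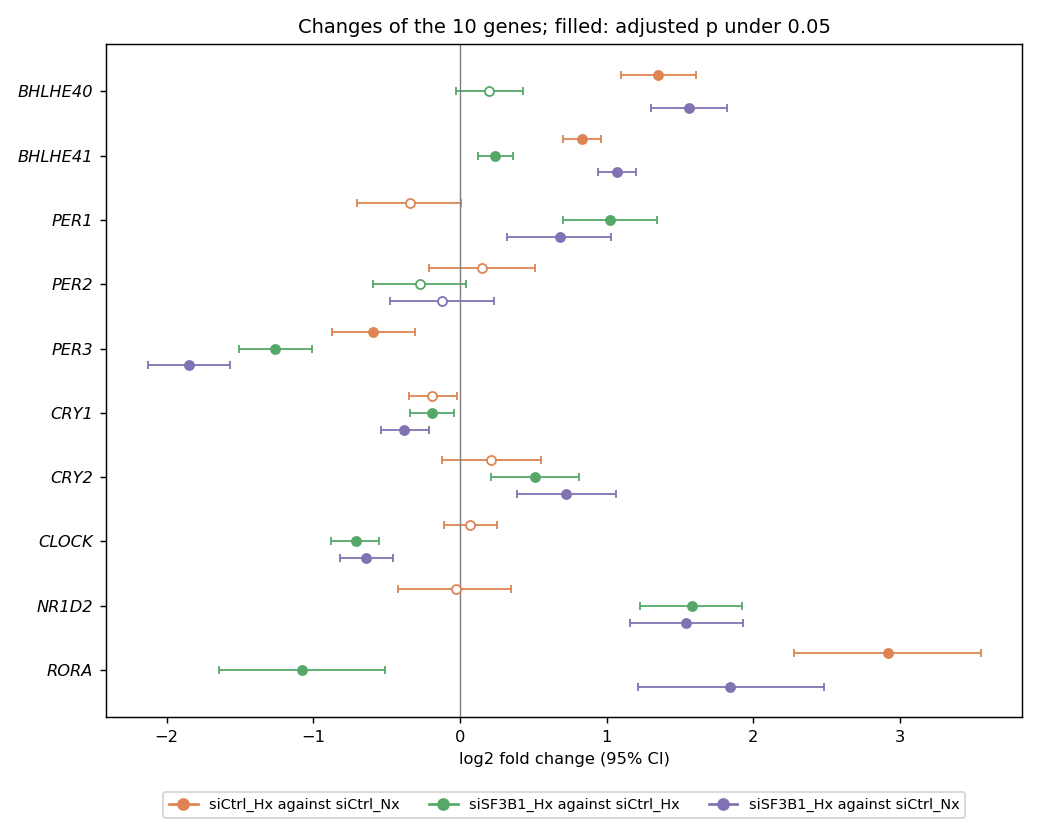
Log2 fold change of each gene in 3 comparisons, with 95% confidence intervals, where filled points passed an adjusted p of 0.05. RORA has the highest hypoxia value at 2.92, and with SF3B1 siRNA the values run from -1.26 for PER3 to 1.58 for NR1D2.

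The third comparison set siSF3B1_Hx against siCtrl_Nx, where siRNA and oxygen differ together and cannot be told apart. It shares its libraries with both other comparisons. Of the 10 genes 6 were higher and 3 lower, against 62.4% of all genes called, 34.1% higher and 28.3% lower, and PER2 did not pass. With plain read totals the shares of all genes were 24.2% higher and 36.8% lower, and the member counts stayed at 6 and 3. The libraries of both groups did not overlap for 9 members, against 74.0% of all genes. The median log2 fold change was 0.70 over the members and 0.061 over all genes. RORA stayed 3.59-fold above its 21% oxygen level (log2 fold change 1.84 ± 0.286 SE, limma adjusted p = 0.000303). PER3 stood 3.61-fold below (-1.85 ± 0.125 SE, adjusted p = 1.53e-06), and CLOCK 1.56-fold below (-0.64 ± 0.0822 SE, adjusted p = 8.63e-05). CRY1 was the third lower gene, 1.3-fold below (-0.38 ± 0.0739 SE, limma adjusted p = 0.0013). Log2 fold changes of the genes that were higher were 1.56 for BHLHE40, 1.54 for NR1D2, 1.07 for BHLHE41, 0.72 for CRY2 and 0.68 for PER1. PER2 was at -0.12 (limma adjusted p = 0.515), and passed with the block at -0.25 (adjusted p = 0.0366).

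Levels were then compared between genes per length, as CPM per kilobase of all annotated exon bases in GENCODE 29, a scale that takes no account of which isoforms Panc1 cells use. In siCtrl_Nx the order was BHLHE41 at 22.7 ± 0.605 (SD, n = 2), BHLHE40 at 18.1 ± 2.07, CRY1 at 13.7 ± 0.129 and CLOCK at 6.15 ± 0.213 CPM per kilobase. There followed NR1D2 at 4.12, PER3 at 3.72, CRY2 at 3.32, PER2 at 2.82, PER1 at 2.21 and RORA at 0.0309, all in CPM per kilobase. Neighbours from NR1D2 to PER2 in this order had overlapping ranges, and the other neighbours did not. In siCtrl_Hx BHLHE40, at 46.3 ± 3.86 (SD, n = 3), stood above BHLHE41, at 40.4 ± 0.331 CPM per kilobase, with no overlap. In siSF3B1_Hx NR1D2 reached 12.3 ± 2.93 CPM per kilobase, and its range of 9.12 to 14.9 overlapped that of CRY1, 9.79 to 11.1. PER3 stood at 1.02 ± 0.105 there, the lowest of the PER genes, and RORA was last in every group, at 0.268 ± 0.0651 in siCtrl_Hx and 0.124 ± 0.0285 CPM per kilobase in siSF3B1_Hx.

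**Figure D3:**
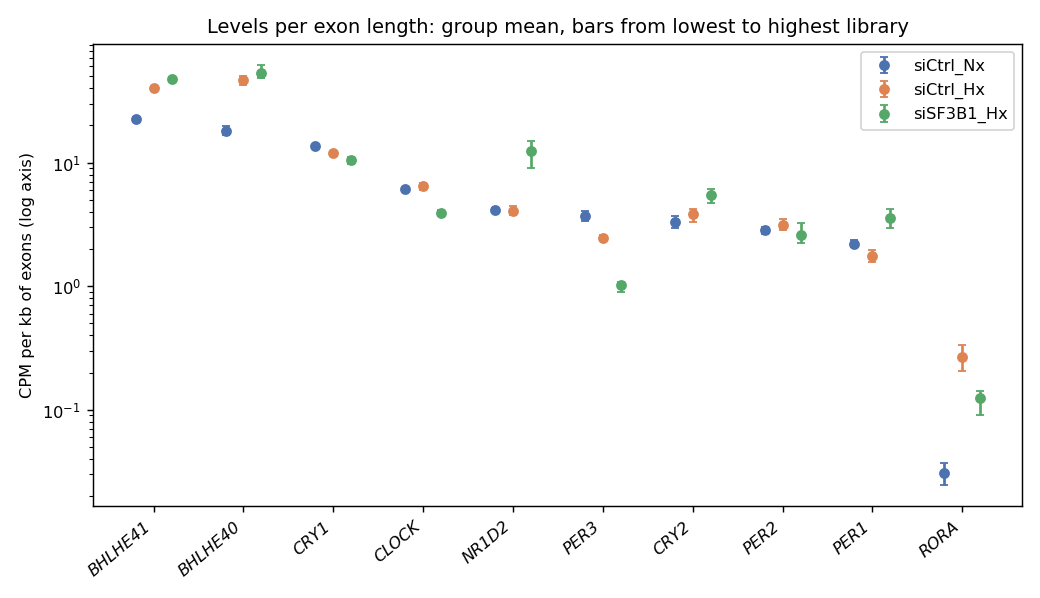
Level of the 10 genes in CPM per kilobase of exon on a log axis, where points are group means and bars run from the lowest to the highest library. The bHLH repressors stand at the top in every group and RORA at the bottom, and NR1D2 goes from 4.04 in siCtrl_Hx to 12.3 in siSF3B1_Hx.

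The rest of the clock was read from a list of 28 other clock genes, of which 23 were listed and tested. In hypoxia 2 rose, none fell and 21 did not pass, against the 5.65% of all genes called, and 6 of the 23 (26.1%) had an unadjusted p under 0.05, against 19.7% of all genes. NFIL3, a repressor that binds D-boxes, was at 3.51 and 3.59 log2 CPM in siCtrl_Nx and at 4.65, 4.51 and 4.91 in siCtrl_Hx. It rose 2.20-fold (log2 fold change 1.14 ± 0.167 SE, limma adjusted p = 0.00282). HDAC3, the deacetylase that REV-ERB proteins recruit, passed at 0.38 ± 0.0889 SE (limma adjusted p = 0.0361). The HDAC3 call was lost without siCtrl_Nx replicate 1 or 4 (adjusted p = 0.213 and 0.215), without siCtrl_Hx replicate 2 or 8 (0.0788 and 0.113), and with no intensity trend (0.0751). The count of 2 became 1 in each of those settings, 4 with plain read totals and 5 with the block. BMAL1 itself, as ARNTL, had a log2 fold change of 0.39 in hypoxia and -0.03 with SF3B1 siRNA, and neither passed.

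With SF3B1 siRNA 6 of the 23 other clock genes rose, 6 fell and 11 did not pass, against the 66.0% of all genes called, with a median log2 fold change of -0.03. HDAC3, CSNK2A1 and TIMELESS were among those with the smallest p. HDAC3 went from 6.29, 6.25 and 6.49 log2 CPM in siCtrl_Hx to 4.80, 4.87 and 4.94 in siSF3B1_Hx, a 2.78-fold fall (limma adjusted p = 3.25e-07). HDAC3 shares 9.2% of its exon bases with a transcript annotated on the opposite strand. TIMELESS, a replication fork protein that binds clock repressors, fell 2.01-fold (limma adjusted p = 1.88e-06). CSNK2A1, a catalytic subunit of casein kinase CK2, rose 1.71-fold (limma adjusted p = 1.69e-06). The 12 calls in this list became 16 after quantile normalization, 7 higher and 9 lower. They became 15 with plain read totals (6 higher, 9 lower), against 64.9% of all genes, and 15 with the block (7 higher, 8 lower), against 73.7%. With no filter, and with no intensity trend, 11 were called.

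The other called genes of the list that are named next were picked after their values were seen. NR1D1, the paralogue of NR1D2, was at 3.54, 3.45 and 3.21 log2 CPM in siCtrl_Hx and at 4.39, 4.44 and 4.80 in siSF3B1_Hx. It rose 2.21-fold (log2 fold change 1.14 ± 0.133 SE, limma adjusted p = 3.48e-05), and 9.49% of its exon bases are shared with THRA on the opposite strand. Both REV-ERB genes were thus higher with the siRNA in every library. CIART, another repressor of CLOCK and BMAL1, rose 1.73-fold (limma adjusted p = 0.00547) from 51 to 72 reads per library to 84 to 103. The kinase gene GSK3B, the NAD salvage enzyme gene NAMPT and the ubiquitin ligase gene FBXW11 rose, with log2 fold changes of 0.39, 0.68 and 0.46. The ligase gene BTRC and the deubiquitinase gene USP2 fell, at -1.0 and -1.34. NAMPT and USP2 share 8.69% and 17.5% of their exon bases with transcripts on the opposite strand. CREB1, the factor that binds cyclic AMP elements, was called at -0.23 with an adjusted p of 0.0494, and this call was lost in 10 of 17 other settings, by leaving out any library except siCtrl_Hx replicate 5 among them.

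BHLHE40 and BHLHE41 belong to the wider class of helix-loop-helix repressors, so 13 HES, HEY and ID genes were examined, of which 10 were listed and tested. In hypoxia 1 rose and none fell, against the 5.65% of all genes called, which for 10 genes is near the background. HES1, the best-known repressor under Notch signalling, was that gene, at 3.91 ± 0.17 log2 CPM (SD, n = 2) in siCtrl_Nx and 4.48 ± 0.08 (SD, n = 3) in siCtrl_Hx. Its log2 fold change of 0.57 ± 0.109 SE (limma adjusted p = 0.0131) lost its call without siCtrl_Nx replicate 4 (adjusted p = 0.167) and without siCtrl_Hx replicate 2 or 8 (0.0551 and 0.0559), so the count was then 0. With SF3B1 siRNA 2 rose, 1 fell and 7 did not pass, a smaller share than the 66.0% of all genes. Of those that did not pass, HES7, HEY1 and HEYL had few reads. Their highest counts in a library of this comparison were 49, 61 and 51, so a miss there does not show that the gene was unchanged. ID3 and ID1, which lack the DNA-binding region and sequester bHLH partners, rose 2.59-fold and 1.76-fold (limma adjusted p = 2.93e-05 and 0.000163). HES6, known to counter HES1, fell 2.51-fold (limma adjusted p = 3.75e-05). In the comparison of siSF3B1_Hx with siCtrl_Nx, 8 of the 23 other clock genes were higher and 7 lower, and 4 of the 10 HES, HEY and ID genes were higher and 1 lower, against 34.1% higher and 28.3% lower among all genes.

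**Figure D4:**
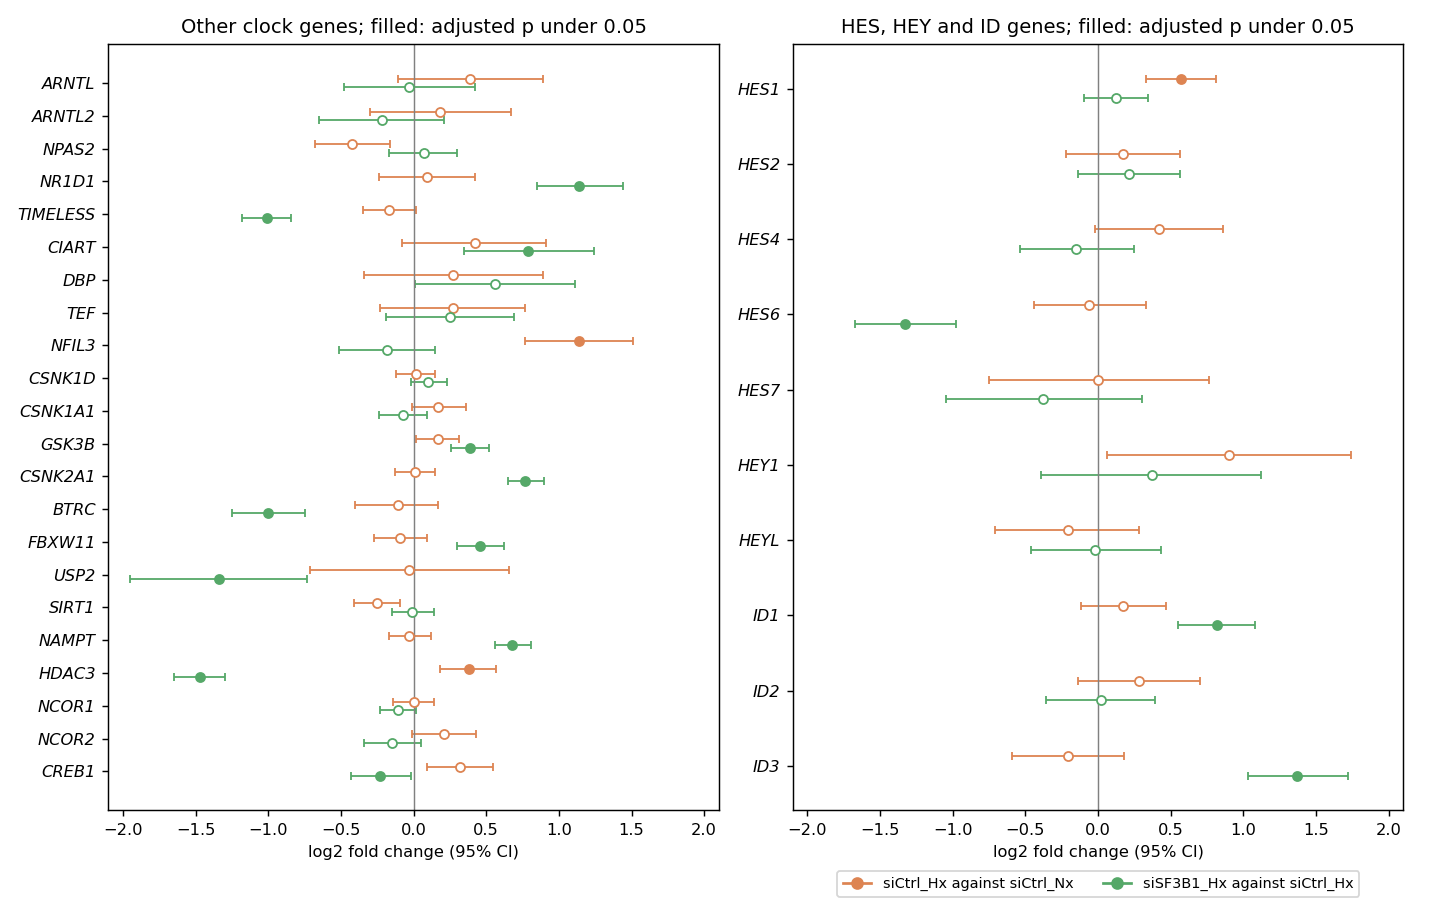
Log2 fold change with 95% confidence intervals of 22 of the other clock genes and the 10 HES, HEY and ID genes in hypoxia and with SF3B1 siRNA, where filled points passed an adjusted p of 0.05. NFIL3 stands out to the right in hypoxia at 1.14, while with SF3B1 siRNA NR1D1 and ID3 lie to the right and HDAC3, USP2 and HES6 to the left.

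The genes most like each member in level over the 8 libraries were found by Pearson r among the 12041 other genes that have a symbol and a mean log2 CPM of at least 1. All points share the same 3 groups, so these values describe the group pattern. ADM, which encodes the vasodilator peptide adrenomedullin, was nearest to BHLHE40 (r = 0.995), followed by DPYSL2 and ZBTB1 (both 0.988). The nearest gene was BMT2 for BHLHE41 (0.992), TAF1C for PER1 (0.995), N4BP3 for PER2 (0.953), PSMD5 for PER3 (0.997) and ZNF839 for CRY1 (0.994). It was PELO for CRY2 (0.985), GTF2I for CLOCK (0.997), B3GNT5 for NR1D2 (0.999) and FUT11 for RORA (0.99). PER2, whose groups overlapped, had the lowest of these best values.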

How the data were processed

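RNA from 8 Panc1 libraries was prepared with a stranded kit, per the labels' protocols. The submitters' processing notes name the build GRCh38.p13 and, without roles, edgeR 3.24.3, Subread 1.5.0 with featureCounts, STAR 2.7.0a, SAMtools 1.9 and Trimmomatic 0.35. The deposited table holds log2 CPM values made by the authors, with a prior count. Undoing the scale gave whole reads for 100.0% of values (within 0.01 read, mean prior 1.956 reads).

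The log2 values were fitted as deposited with limma 3.58.1 in R 4.3.3: 1 mean per group over all 8 libraries, 5 residual degrees of freedom, an intensity trend, genes with mean log2 CPM above 0, two-sided tests, Benjamini-Hochberg adjustment over 13112 genes and calls at 0.05. The fit was checked on simulated data. The labels number the libraries, and 1 to 3, 4 to 6 and 7 to 9 were read as sets, whose meaning is not given. Deviations from group means correlated from 0.34 to 0.43 in 7 same-set pairs of libraries, which are not all independent, and from -0.42 to 0.06 in 14 other pairs, so the sets were taken as pairing and used as a block in an alternative fit. Other alternatives were the scaling (quantile normalization, plain totals), a prior count of 0.5 reads, voom on recovered reads, no filter or a stricter one (mean log2 CPM above 1), only the libraries compared, no trend, and leaving out each library.

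All 10 members are named; from each list and comparison the called genes with the smallest p (4 at most), or without any call the 2 with the largest change; and genes most like a member by Pearson r. Names outside this rule are given as such or as checks, and 1 gene that the rule takes is not reported here. The members and lists were chosen with earlier results of these data known. Positions and exon lengths come from GENCODE 29 (GRCh38), promoter sequences from RefSeq (GRCh38.p14).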

Additional observations from a re-analysis of the deposited data

How the results depend on the processing

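The gene-level results cover the 10 members and, in each comparison, the list genes called in it. List genes not called, which could gain a call, are not in this tally. In some fits the log2 fold change could not move, since the group means stayed the same. These were the fits with another filter, no trend, only the libraries compared, or a library outside the comparison left out. They count in the tally but bear only on the side of the threshold. In the alternatives other than leaving out 1 library, which include fits to only the libraries compared, 595 of 608 values held their direction and their side of the threshold. None of these reversed. Of 544 values with 1 library left out 511 did, and 2 reversed: the uncalled hypoxia change of NR1D2 became 0.03 without siCtrl_Nx replicate 4 and 0.02 without siCtrl_Hx replicate 2, in a range from -0.10 to 0.03. The other clock genes called in hypoxia numbered 4 with plain read totals, 1 with no intensity trend and 5 with the replicate block, and all genes called in hypoxia numbered 1645 with the replicate block; the cause was not tested. With 1 library left out, hypoxia calls ranged from 3 to 4 of the members, from 1 to 3 of the other clock genes, 0 to 1 of the HES, HEY and ID genes and 278 to 881 of all genes. In the siRNA comparison 7 to 8 members were called, and in the third comparison 9 in each case. With the replicate block all 10 members were called in both the siRNA comparison (5 higher, 5 lower) and the third (6 higher, 4 lower), where 73.7% and 69.5% of all genes were called. Without 1 siCtrl_Nx library that group has 1 sample, which is assumed to vary like the other groups. A miss of the threshold in hypoxia, with 2 normoxic libraries, does not show that a gene was unchanged, and RORA rests on 11 to 137 reads per library, so its fold change depends on the prior count (log2 fold change 3.06 with 0.5 reads).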
